A study of Homo sapiens with 4 samples.

Results

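Lactate leaves a glycolytic cell together with a proton through monocarboxylate transporters, and the acid load that remains is handled by carbonic anhydrases and by transporters that carry bicarbonate or protons. Lactate dehydrogenase, a tetramer of the LDHA and LDHB subunits, interconverts pyruvate and lactate. SLC16A3 and CA9 are known as targets of the hypoxia-inducible factor, and their products are common on the surface of glycolytic tumor cells. The genes described here are SLC16A1, SLC16A3 and SLC16A7 (the transporters MCT1, MCT4 and MCT2), BSG (basigin, the chaperone that brings MCT1 and MCT4 to the plasma membrane), LDHA, LDHB, CA9 and CA12 (membrane carbonic anhydrases whose active site faces the outside) and SLC4A7 (a sodium-bicarbonate cotransporter, NBCn1). These 9 genes were found by symbol among the 16376 genes listed, and all 9 were present. They were chosen by function with the fluoxetine against PBS differences of these libraries already known, so their differences between the groups are given as a description and not as a test.

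The cells were LASCPC-01, a line of neuroendocrine prostate cancer (NEPC) that was made by expressing NMYC with activated AKT1, with a genotype given as WT. The 2 PBS libraries came from control cells and the 2 fluoxetine libraries from cells exposed to this antidepressant, a serotonin reuptake inhibitor. The study's text gives 5 µM for 48 h for the sequencing experiment, whereas the sample titles give day 3 and no dose, and the titles of the treated samples carry the letters PP. Nothing states whether the libraries of a group came from separate cultures, so p-values measure only the spread between these libraries, which may be technical. All libraries come from this 1 cell line.

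The table holds FPKM, a level corrected for gene length and for the number of mapped fragments. The values were divided by a depth between 32873603 and 34831389 reads, worked back from the values themselves. A single read on 1 kilobase added 0.0287 to 0.0304 FPKM. Across genes, the departure of each library from the mean of the 4 correlated with log2 gene length at -0.28 in fluoxetine replicate 1 and between 0.05 and 0.19 in the other libraries. Among neuroendocrine markers, NCAM1 had 52.0 and 51.2 FPKM with PBS and 44.3 and 47.1 FPKM with fluoxetine. INSM1 lay between 21.7 and 24.2 FPKM with overlapping groups. SYP reached at most 0.629 FPKM, and CHGA, CHGB and NEUROD1 had means under 0.1. Of the 5 neuroendocrine markers tested, 4 had a negative and 1 a positive log2 fold change. None of the 5 had an adjusted p under 0.05 from limma. The epithelial KRT8 had 434.3 and 411.5 FPKM with PBS and 475.4 and 446.4 FPKM with fluoxetine. MYCN had 369.7 and 386.5 FPKM with PBS and 323.1 and 363.6 FPKM with fluoxetine. Of 11 markers of fibroblasts, endothelium and immune cells, 4 were tested with limma and 8 with voom on the recovered reads, and by either tool 0 had an adjusted p or an unadjusted p under 0.05. The summed fibroblast markers were 2.85 and 2.96 FPKM with PBS and 1.93 and 2.81 FPKM with fluoxetine, with COL1A1 as the main contributor at 1.83 to 2.75 FPKM. The summed endothelial markers were 0.205 and 0.218 FPKM with PBS and 0.105 and 0.170 FPKM with fluoxetine. Both sums were thus lower in both treated libraries, the direction of SLC16A3 and CA9. Gene by gene this held less well. COL1A1, COL1A2, PECAM1 and VWF overlapped between the groups. DCN, LUM and CDH5 were lower in both treated libraries, beside 24.8% of all genes tested. PDGFRB was higher in both, beside 16.7% of all genes tested. LUM had 9 and 2 reads with PBS and 2 and 2 with fluoxetine, and PDGFRB 0 and 0 against 1 and 1. DCN had 49 and 31 reads with PBS and 18 and 29 with fluoxetine. CDH5 had 17 and 8 reads with PBS and 2 and 3 with fluoxetine. The summed immune markers, nearly all of it CD68, overlapped between the groups at 2.76 to 3.99 FPKM. The part of these markers in the results was not tested.

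The 9 genes covered a wide span of levels, which FPKM allow to be compared as far as the gene lengths used are right. The lengths worked back from the values differed from the GENCODE 29 exon lengths, as in SLC16A3 with 3227 against 8995 bases. Levels and shares compared between genes depend on the lengths used. In the PBS libraries LDHA and LDHB were the highest and overlapped each other, with means of 471.9 and 460.3 FPKM. BSG followed at 195.0 FPKM and SLC16A1 at 20.1, then SLC4A7 at 8.54, SLC16A7 at 3.36, SLC16A3 at 2.48 and CA9 at 1.61. CA12 came last with a mean of 0.00708 FPKM. From BSG downward, neighbours in this order did not overlap between the PBS libraries. MCT1 was thus the main transcript of the 3 transporters, and LDHA stood at position 88 and BSG at position 244 of all listed genes by mean FPKM with PBS.

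**Figure D1:**
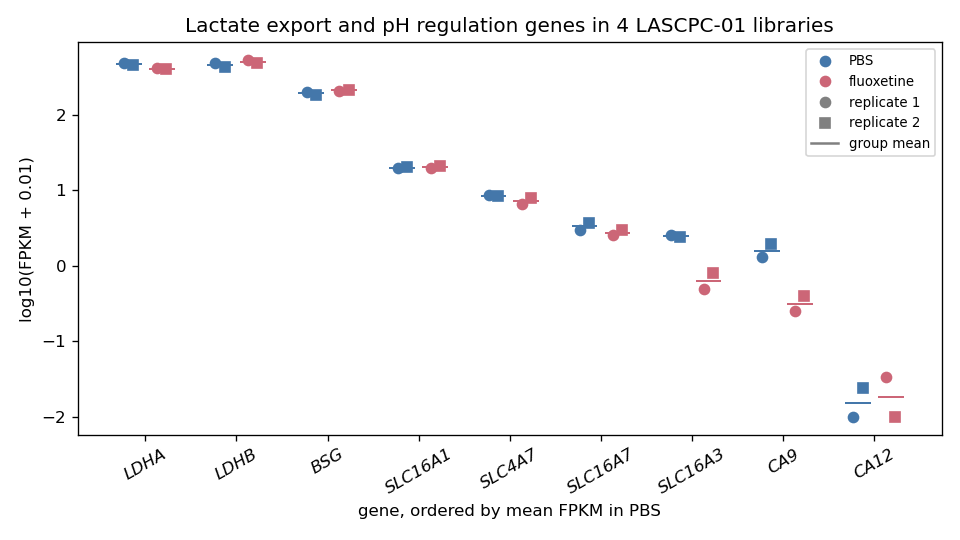
Level of each gene in each library as log10(FPKM + 0.01), genes ordered by mean FPKM in PBS; circles are replicate 1, squares replicate 2, blue PBS, red fluoxetine, and horizontal lines the group means on this scale (n = 2). SLC16A3 and CA9 are the genes whose groups stand clearly apart, and CA12 lies at the bottom with 0 reads in 1 library of each group.

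Differences between the groups were taken from a limma fit to log2(FPKM + 0.1) of 12663 genes whose mean reached 0.1 FPKM. On this scale the fold change of a low gene is understated. Of the 9 genes, 8 passed this filter, and CA12 did not. SLC16A3 and CA9 had an adjusted p under 0.05 from limma and were lower with fluoxetine, 2 of 8 genes, beside 0.237% of all genes tested in either direction and 0.213% in the lower direction. In SLC16A3, SLC16A7, LDHA, CA9 and SLC4A7 both fluoxetine libraries lay below both PBS libraries, 5 of 8 genes, beside 24.8% of all genes. BSG was the 1 gene with both fluoxetine libraries above both PBS libraries, beside 16.7% of all genes. Since the genes were chosen with this contrast known, nothing is read from these counts. The median log2 fold change was -0.21 over the 8 genes and -0.02 over all genes tested. With 2 libraries against 2, the smallest p that an exact two-sided permutation test of 1 gene allows is 0.33.

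The lactate exporter SLC16A3, which encodes MCT4, was at 2.53 and 2.43 FPKM under PBS. Under fluoxetine it was at 0.490 and 0.801 FPKM. Both treated libraries were well below both controls. The reads behind these values were 268 and 272 with PBS and 55 and 90 with fluoxetine, so the low level in treated cells rests on fewer than 100 reads per library. The mean of 2.48 ± 0.0716 FPKM (SD, n = 2) in controls compared with 0.645 ± 0.22 FPKM (SD, n = 2) in treated cells, 3.84-fold lower, and the log2 fold change was -1.82 (standard error 0.21). It had the position 6 from the lowest log2 fold change among all genes tested. Leaving out each library in turn gave -2.13 to -1.52, and the adjusted p from limma passed 0.05 without either fluoxetine library but not without PBS replicate 1 (0.233) or PBS replicate 2 (0.364). A lone library of a group is assumed in these fits to vary like the other group. SLC16A3 lies on chromosome 17 of GRCh38 from 82228397 to 82261129 on the plus strand in GENCODE 29, where its exons overlap those of CSNK1D on the opposite strand. CSNK1D, a casein kinase, had between 26.9 and 28.3 FPKM in the 4 libraries, with the groups overlapping.

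CA9, which hydrates carbon dioxide at the outer face of the membrane, had 1.30 and 1.92 FPKM with PBS and 0.242 and 0.390 FPKM with fluoxetine. Here too the groups did not overlap. Its reads numbered 66 and 103 in the control libraries and 13 and 21 in the treated libraries. The mean of 1.61 ± 0.437 FPKM (SD, n = 2) in controls compared with 0.316 ± 0.105 FPKM (SD, n = 2) in treated cells, 5.09-fold lower, and the log2 fold change of -2.04 (standard error 0.26) had the position 3 from the lowest among all genes tested. The values with 1 library left out ranged from -2.30 to -1.77, and the adjusted p from limma passed 0.05 only when fluoxetine replicate 2 was the library left out (0.0269), with 0.140 without PBS replicate 1, 0.405 without PBS replicate 2 and 0.0567 without fluoxetine replicate 1. With voom on the recovered reads, CA9 had an adjusted p of 0.0546. CA9 lies on chromosome 9 from 35673856 to 35681159 on the plus strand, and its exons overlap those of ARHGEF39 on the opposite strand. ARHGEF39 had 5.91 and 6.71 FPKM with PBS and 6.75 and 7.15 FPKM with fluoxetine, higher where CA9 was lower.

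**Figure D2:**
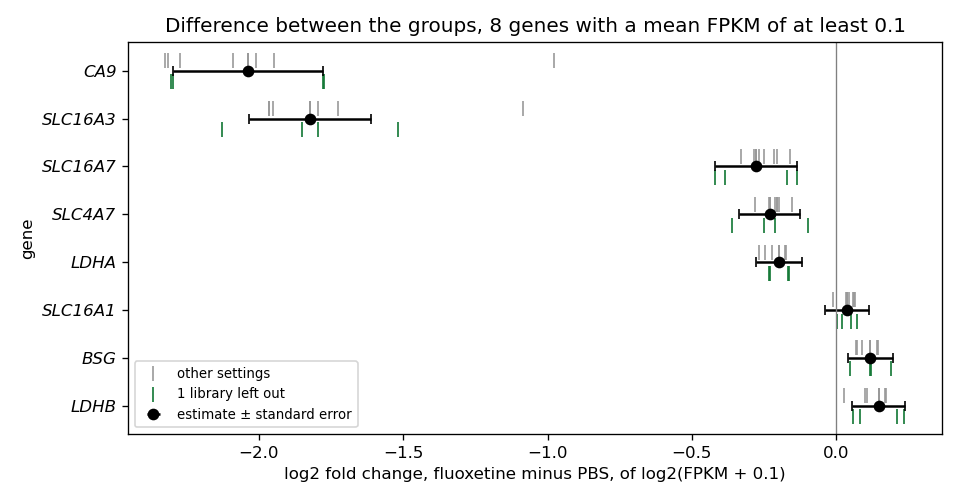
Log2 fold change (fluoxetine minus PBS) of log2(FPKM + 0.1) for the 8 genes tested; black points are the limma estimates with their standard errors, grey ticks the same value under other settings and green ticks with 1 library left out. SLC16A3 and CA9 lie near -2, with single grey ticks near -1 where the pseudocount was 1, and the other 6 genes lie between -0.28 and 0.15.

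CA12, which encodes the other membrane carbonic anhydrase of the group, had 0 and 0.0142 FPKM with PBS and 0.0236 and 0 FPKM with fluoxetine. These values stand for 0, 3, 5 and 0 reads. A library with 0 reads allows up to 0.0150 FPKM when 3 reads are taken as the limit (counting error only), so no difference in CA12 was detectable at this depth. The gene lies on chromosome 15 from 63321378 to 63382161. CA9 was therefore the more abundant of the 2 in every library.

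The starts of SLC16A3, CA9 and LDHA are shown because these genes were lower in both treated libraries and are known targets of the hypoxia-inducible factor, whose response element holds the letters ACGTG. Each sequence is the 250 bases before a RefSeq transcript start on GRCh38.p14, on the plus strand. ACGTG on either strand (read as ACGTG or CACGT, joined where they overlap) is in capitals. Only windows that hold these letters are shown, so a match in each sequence was fixed by this choice. The SLC16A3 window is chr17:82228792-82229041, the CA9 window is chr9:35673678-35673927 and the LDHA window is chr11:18394313-18394562.
SLC16A3: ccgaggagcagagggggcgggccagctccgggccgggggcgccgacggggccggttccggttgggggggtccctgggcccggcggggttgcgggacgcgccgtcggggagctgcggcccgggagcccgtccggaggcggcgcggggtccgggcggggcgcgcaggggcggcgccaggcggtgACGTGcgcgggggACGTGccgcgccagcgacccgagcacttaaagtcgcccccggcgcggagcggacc
CA9: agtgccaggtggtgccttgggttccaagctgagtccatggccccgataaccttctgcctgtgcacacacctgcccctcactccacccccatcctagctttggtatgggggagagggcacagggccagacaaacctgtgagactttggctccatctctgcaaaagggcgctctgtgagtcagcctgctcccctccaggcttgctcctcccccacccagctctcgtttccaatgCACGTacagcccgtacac
LDHA: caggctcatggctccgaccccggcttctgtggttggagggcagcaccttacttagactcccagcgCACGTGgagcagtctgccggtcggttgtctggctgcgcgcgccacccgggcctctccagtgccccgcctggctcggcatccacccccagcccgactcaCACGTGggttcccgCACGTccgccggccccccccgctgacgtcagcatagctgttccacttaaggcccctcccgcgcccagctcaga

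The SLC16A3 window holds 2 such blocks, beginning 68 and 55 bases before the start, the CA9 window holds 1, beginning 18 bases before it, and the LDHA window holds 3, beginning 185, 87 and 73 bases before it. Of all 35116 windows of this length, 18.5% hold at least 1. Counted by gene, 21.7% of 27305 genes hold at least 1 in any of their windows. RefSeq windows were matched for 8 of the 9 genes, SLC16A1 being the gene without an entry. Of their 16 windows, 4 hold the letters, and so do 4 of these 8 genes. The difference from all genes was not tested. BSG holds the letters in 1 of 2 windows, SLC16A3 in 1 of 5 and LDHA in 1 of 2, and the windows of SLC16A7, LDHB, CA12 and SLC4A7 do not hold them. A gene that was not lower with fluoxetine, BSG, is thus also among those with a match. SLC16A7 and SLC4A7, which were lower in both treated libraries, are among those without one. A match describes the letters and is no evidence of binding in these cells.

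SLC16A1, which encodes MCT1, the most widely expressed of these transporters, had 19.9 and 20.3 FPKM with PBS and 20.1 and 21.1 FPKM with fluoxetine. The groups overlapped. Its log2 fold change was 0.04 (standard error 0.08), which was -0.011 after rescaling to TPM. It lies on chromosome 1 from 112911847 to 112957013 on the minus strand, with an antisense gene, SLC16A1-AS1, over some of its exons.

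SLC16A7, which encodes MCT2, a transporter with high affinity for lactate and pyruvate, had 3.02 and 3.70 FPKM with PBS and 2.54 and 2.96 FPKM with fluoxetine. The groups were separated only by the gap between 2.96 and 3.02 FPKM, which is smaller than the spread within either group. The log2 fold change was -0.28 (standard error 0.14), with -0.42 to -0.13 when 1 library was left out. SLC16A7 lies on chromosome 12 from 59596067 to 59789855 on the plus strand.

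SLC16A3 made up a smaller part of the transporter transcripts in treated cells. Its share of the summed FPKM of SLC16A1, SLC16A3 and SLC16A7 was 9.94% and 9.18% in the PBS libraries and 2.12% and 3.22% in the fluoxetine libraries. The FPKM of SLC16A1 were 7.86 and 8.37 times those of SLC16A3 with PBS, and 41.1 and 26.4 times with fluoxetine. The sum of the 3 transporters was 25.4 and 26.4 FPKM with PBS and 23.1 and 24.9 FPKM with fluoxetine. These are RNA levels and do not measure lactate output. The study assayed lactate production and glucose use by LASCPC-01 cells, and reported no significant difference between fluoxetine and control in either. Its methods for this assay give a shorter incubation than the 48 h of the sequencing experiment, and no fluoxetine dose.

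BSG had 204.7 and 185.3 FPKM with PBS and 211.0 and 211.7 FPKM with fluoxetine. The chaperone was thus slightly higher in both treated libraries, by less than the PBS libraries differed from each other. The log2 fold change of BSG was 0.12 (standard error 0.08) and ranged from 0.05 to 0.19 over the alternatives. It lies on chromosome 19 from 571277 to 583493 on the plus strand. Its FPKM exceeded the sum of the 3 transporters by a factor between 7.01 and 9.12 in every library.

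LDHA, the subunit that favors lactate formation, had 482.2 and 461.7 FPKM with PBS and 420.7 and 401.6 FPKM with fluoxetine. Both treated libraries were below both controls, with 34981 to 40130 reads per library, so counting error is small beside the spread between libraries. The mean of 471.9 ± 14.5 FPKM (SD, n = 2) in controls compared with 411.1 ± 13.6 FPKM (SD, n = 2) in treated cells, 1.15-fold lower. On the log2 scale this was -0.20 (standard error 0.08). LDHB, the subunit that favors the reverse reaction, had 488.8 and 431.8 FPKM with PBS and 531.4 and 486.6 FPKM with fluoxetine. Here the groups overlapped, and the log2 fold change was 0.15 (standard error 0.09). LDHA lies on chromosome 11 from 18394388 to 18408425 on the plus strand, and LDHB on chromosome 12 from 21635342 to 21757857 on the minus strand, where the gene model AC010197.2 overlaps its exons on the same strand. GENCODE 29 names 6 pseudogenes after LDHA and 3 after LDHB, none of which is listed in the table, and how reads shared with such copies were counted is not given in the sources used here.

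The balance of the subunits differed between the groups without overlap, which was not tested. LDHA made up 49.7% and 51.7% of the summed FPKM of LDHA and LDHB with PBS, and 44.2% and 45.2% with fluoxetine, a difference of -5.96 percentage points between the means (50.7 ± 1.42% and 44.7 ± 0.721%, SD, n = 2). The sum of both subunits was 971.0 and 893.5 FPKM with PBS and 952.2 and 888.1 FPKM with fluoxetine, and its groups overlapped.

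**Figure D3:**
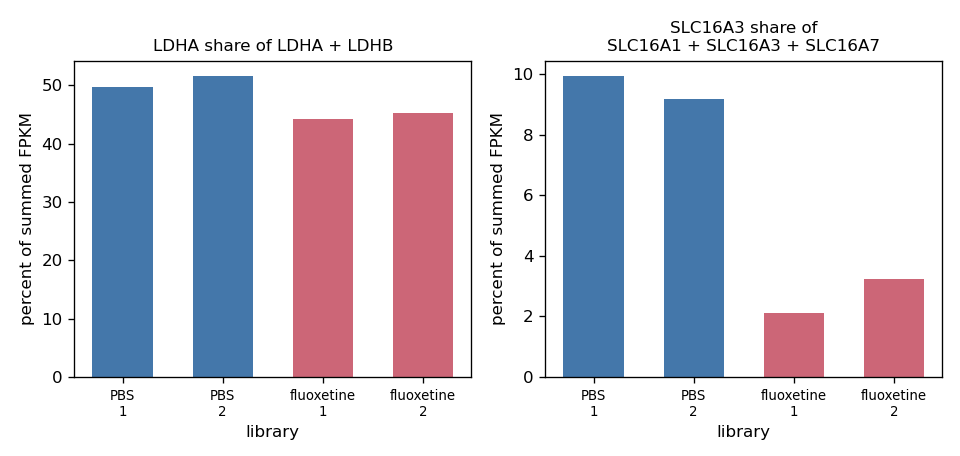
Share of LDHA in the summed FPKM of LDHA and LDHB (left) and of SLC16A3 in the summed FPKM of SLC16A1, SLC16A3 and SLC16A7 (right), in percent, 1 bar per library, blue PBS and red fluoxetine. The LDHA share is near 50% with PBS and near 45% with fluoxetine, and the SLC16A3 share is above 9% with PBS and below 4% with fluoxetine.

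SLC4A7, which brings bicarbonate into the cell and so removes acid, had 8.65 and 8.44 FPKM with PBS and 6.63 and 7.97 FPKM with fluoxetine. Both treated libraries were lower, fluoxetine replicate 1 more so. On the log2 scale the difference was -0.23 (standard error 0.11), and it was -0.10 without fluoxetine replicate 1 and -0.36 without fluoxetine replicate 2. SLC4A7 lies on chromosome 3 from 27372721 to 27484420 on the minus strand.

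Other genes of lactate and acid handling were taken from lists of their families, 85 symbols in all, alternative names included, of which 68 were listed and 43 had a mean of at least 0.1 FPKM. None of the 43 had an adjusted p under 0.05 from limma, and 0 of 50 had one from voom on the recovered reads. An unadjusted p under 0.05 was found for 3 of the 43 with limma, beside 8.51% of all genes tested, and for 3 of the 50 with voom, beside 10.1% of all genes tested with it. Their median was -0.04 on the log2 scale, with 25 genes below 0 and 18 above.

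The other monocarboxylate transporters listed were below SLC16A1 in every library, though SLC16A13 was above SLC16A3. Of 14 named, EMB included, 12 were listed and 5 were tested, with log2 fold changes from -0.38 to 0.56. The 7 below the filter are not in this range. SLC16A13, the highest of them, had 3.78 and 2.74 FPKM with PBS and 3.38 and 2.96 FPKM with fluoxetine. EMB, which encodes embigin, the relative of basigin that accompanies MCT2, had 1.29 and 1.28 FPKM with PBS and 1.05 and 0.885 FPKM with fluoxetine. It was lower by log2 (-0.38, standard error 0.18) in both treated libraries, and limma gave an adjusted p of 0.586, so it did not pass.

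On the pyruvate side, the mitochondrial pyruvate carrier subunits MPC1 and MPC2 lay between 14.3 and 16.6 FPKM and between 56.4 and 65.0 FPKM, and their log2 fold changes were 0.13 and 0.10, each with a standard error of 0.08. Neither passed the threshold. LDHC, the testis subunit of lactate dehydrogenase, had 1 read in all 4 libraries together.

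Of the other carbonic anhydrases 7 were tested, with a median log2 fold change of -0.28. It was negative for 6 and positive for 1, beside 7156 negative among all 12663 genes tested. The groups overlapped in 5 of the 7, beside 7398 of all genes tested. CA14, a membrane form and the highest of the family here, had 7.29 and 8.19 FPKM with PBS and 8.64 and 7.09 FPKM with fluoxetine, and its groups overlapped. CA11, a related protein without catalytic activity, had 4.38 and 4.66 FPKM with PBS and 3.40 and 3.36 FPKM with fluoxetine. The difference on the log2 scale was -0.41 (standard error 0.11). Limma gave an adjusted p of 0.329, so it did not pass. Among the carbonic anhydrases tested, CA9 was the only 1 with an adjusted p under 0.05 from limma, and voom gave it 0.0546. CA9 was chosen with this contrast known, so nothing is read from this. Besides CA12, 5 others of the family were listed but lay below the filter and were not tested.

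Among 8 bicarbonate transporters tested, 3 had a negative and 5 a positive log2 fold change. SLC4A2, a chloride-bicarbonate exchanger that loads acid, was the highest, with 57.5 and 56.3 FPKM with PBS and 60.5 and 64.7 FPKM with fluoxetine (log2 fold change 0.14, standard error 0.07), and limma gave an adjusted p of 0.611. SLC26A6, an anion exchanger, lay between 11.4 and 13.3 FPKM with overlapping groups.

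The 12 sodium-proton exchangers and partners tested split evenly, 6 lower and 6 higher. TESC, a calcium-binding protein, had 69.7 and 61.8 FPKM with PBS and 72.6 and 71.7 FPKM with fluoxetine. SLC9A3R1, a scaffold protein that binds NHE3, lay between 30.6 and 33.9 FPKM.

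ATP4A, the catalytic subunit of the gastric proton pump, had 0.679 and 0.549 FPKM with PBS and 0.139 and 0.131 FPKM with fluoxetine. Its reads were 83 and 71 against 18 and 17, and the groups did not overlap. The log2 fold change was -1.60 (standard error 0.30). Limma gave an adjusted p of 0.0641, so it did not pass, while after rescaling to TPM the adjusted p was 0.0479. Its partner subunit ATP4B had 0 reads with PBS and 2 and 1 with fluoxetine. ATP12A, the other pump of this kind, overlapped between the groups at 0.214 to 0.266 FPKM.

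The pattern of SLC16A3 over the 4 libraries was compared with that of every other gene of at least 1 FPKM, by the Euclidean distance of log2(FPKM + 0.1) centred on each gene's mean. The nearest genes outside the group were GEM (distance 0.258), STC1 (0.463), NDRG1 (0.481), PPFIA4 (0.660) and ALDOC (0.720). CA9, which has a mean under 1 FPKM, was at a distance of 0.471. GEM, a small GTP-binding protein, had 1.90 and 2.04 FPKM with PBS and 0.473 and 0.715 FPKM with fluoxetine. With 4 libraries, such a ranking follows mainly the size of the difference between the groups.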

How the data were processed

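LASCPC-01 cells under PBS (2 libraries) and fluoxetine (2 libraries) were profiled by mRNA sequencing as paired-end reads. The authors deposited FPKM, values per gene corrected for gene length and library depth, with 1 column per library, and each column name matched the description of 1 sample. The submitters' processing notes list fastp, HISAT2, HTSeq and GRCh38 without roles, and the annotation is not given in the sources used here. The labels name a stranded TruSeq kit and the methods a VAHTS kit, and the strand setting of the counting is not given, so reads of overlapping antisense genes may not be separated.

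Limma 3.58.1 in R 4.3.3 (lmFit, eBayes with a variance trend) was fitted to log2(FPKM + 0.1) for genes with a mean of at least 0.1 FPKM, with Benjamini-Hochberg adjustment over all of them, since FPKM are not counts. Whole reads were solved from the ratios of the FPKM between libraries (within 0.004 of a whole number, up to 60000 reads in the lowest library) and the gene length of whole bases at the depth on which 51 GENCODE 29 exon lengths agreed. Reads were solved for 99.9% of the 16080 genes above 0, and the true numbers can be multiples of these. Voom was run on them for genes whose reads in the 4 libraries summed to at least 10, with TMM scaling. The recovery of reads, the limma fit and the voom fit were each tested on simulated data. In the simulation with the largest changes, unchanged genes made up more of the limma and voom calls than the adjusted p threshold allows. The adjusted p-values given here may therefore be too small. Tables and figures were made in Python 3.11.15.

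The genes named were the 9 genes, and in each list those with an adjusted p under 0.05, the 2 of highest mean FPKM and the 1 of largest log2 fold change at a mean of at least 1 FPKM, beside the 5 genes nearest to SLC16A3. Some genes of the lists are not reported here. LDHC, ATP4B, HCAR1, the markers COL1A2, DCN, LUM, PDGFRB, PECAM1, VWF and CDH5, and the overlapping CSNK1D and ARHGEF39 were named after their values were seen. The genes and lists were chosen with earlier results of these data known. Of the 16 alternatives, 15 were planned, and the removal of the gene length trend (lowess, span 0.3) was chosen after seeing the data.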

Additional observations from a re-analysis of the deposited data

How the results depend on the processing

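Over 16 alternatives (15 for CA9, whose mean is under 1 FPKM), the log2 fold changes of SLC16A3, SLC16A7, BSG, LDHA, LDHB, CA9 and SLC4A7 kept their sign, and that of SLC16A1 turned to -0.011 after rescaling to TPM. A pseudocount of 1 gave -1.09 for SLC16A3 and -0.98 for CA9, the understatement this scale brings for low genes. LDHA was at -0.25 after rescaling to TPM and at -0.27 with quantile normalization, which put LDHB at 0.025. Of the 8 genes, 2 had an adjusted p under 0.05 from limma. The number was 0 without the filter on low values and without the variance trend, 1 with a minimum mean of 1 FPKM (where CA9 is not tested), 1 with voom, and 0 to 2 with 1 library left out. The adjusted p of SLC16A3 ranged from 6.23e-05 to 0.650 and that of CA9 from 0.000177 to 0.650. Among the related genes 1, ATP4A, passed after rescaling to TPM and 1, again ATP4A, with the replicate block. Same-numbered libraries, which share only a number in the titles, had deviations from their group means with a correlation of 0.035.

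Over all genes, 27 were lower and 3 higher in fluoxetine. The counts were 0 and 0 without the filter and without the trend, 30 and 6 with a minimum mean of 1 FPKM, 14 and 2 with quantile normalization, 25 and 5 with median centring, 47 and 17 with the replicate block, 43 and 5 with voom, and 20 and 1 with the gene length trend removed. With 1 library left out they ranged from 1 to 11 lower and from 1 to 2 higher. An unadjusted p under 0.05 from limma was found for 1175 genes without the filter and for 933 without the trend. The causes were not tested. CA12 and the genes with a few reads are limited by depth.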

Other observations

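The receptors that sense protons or lactate were at low or moderate levels. Of 11 symbols named, 8 were listed and 5 had a mean of at least 0.1 FPKM, with log2 fold changes from -0.15 to 0.13, and 0 of the 5 had an adjusted p or an unadjusted p under 0.05 from limma. PACC1, a chloride channel opened by protons, was the highest, with 6.89 and 7.73 FPKM with PBS and 8.24 and 7.77 FPKM with fluoxetine (log2 fold change 0.13, standard error 0.10). ASIC2, an acid-sensing sodium channel, had 5.21 and 4.97 FPKM with PBS and 4.90 and 5.44 FPKM with fluoxetine. The lactate receptor HCAR1 had 0 and 2 reads in controls against 8 and 1 in treated cells, too few for a comparison.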
